A study of Triticum aestivum with 24 samples.

Results

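The Rht1 genes of bread wheat, which encode the DELLA growth repressor, were followed through 8 growing conditions in leaves. They were the 3 gene identifiers that correspond to its copies on the A, B and D subgenomes, out of 105200 identifiers in the expression table. These were TraesCS4A02G271000 (Rht-A1, on chromosome 4A), TraesCS4B02G043100 (Rht-B1, on chromosome 4B) and TraesCS4D02G040400 (Rht-D1, on chromosome 4D). All 3 passed the filter on low values. All plants were the winter wheat cultivar Alana, and leaves 3 and 4 of the main tiller were sampled at growth stage 61, when the ear begins to flower. The 8 groups of 3 biological replicates were an untreated control, drought (soil water held at 25 ± 5%), heat of up to 31 °C (called temperature below), CO2 at 700 ppm, temperature+drought, CO2+drought, CO2+temperature and all 3 treatments together. The labels do not say which Rht1 alleles the cultivar carries.

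DELLA proteins are nuclear regulators of the GRAS family that hold back growth. When the hormone gibberellin binds its receptor GID1, the receptor takes hold of the DELLA protein, which is then marked for destruction and growth proceeds. In wheat the gene is best known for its semi-dwarfing alleles, which make DELLA proteins that resist this destruction and keep stems short. Because the protein is controlled largely by its breakdown, the transcript measured here is the supply side of the system and not the amount of protein. The files pair identifiers with no gene names, and 0 of 105200 identifiers had an entry in the reference list of genes. No other gibberellin gene, and no leaf marker gene, could therefore be named. That list held 1 gene under the names DELLA and Rht-D1, on chromosome 4D.

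Levels are in FPKM, which divides fragment counts by gene length and by library size, so copies of different length can be compared. The columns fell into sets of 6 and 18. A scaling factor was taken per library, as the median gene's value relative to its geometric mean over libraries. It ran from 0.872 to 0.892 in the 6 temperature+drought and CO2+drought libraries and from 1.05 to 1.06 in the other 18. A typical gene was thus 1.19-fold lower in the 6, a difference of 0.25 on the log2 scale, which cannot be told apart from those groups. The 6 columns also differed in how they were written, most often with at most 9 decimals against at least 14 in the other 18. For results that involve these groups, values stand as deposited and also rescaled, that is, with every value divided by the factor of its library. CO2+temperature+drought replicate 3 agreed least with its group (mean correlation of 0.946 across genes with the other 2 libraries, against 0.958 to 0.993 for the other 23 libraries with theirs). Changes are differences of log2(FPKM + 1) from a limma model of all 24 libraries. A gene was called at a Benjamini-Hochberg adjusted p under 0.05 over the 45359 genes tested. In places, libraries of a group are said not to overlap with those of another, or all to lie above or below them. The share of all genes that separate likewise was not counted, so such a separation is no test.

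All 3 copies were transcribed in every library, and Rht-A1 was the most abundant of them in 24 of 24. Over all libraries the mean level was 24.3 FPKM for Rht-A1, with a range of 19.0 to 29.3 FPKM. In leaves as bulk samples, fewer cells that transcribe a gene and less RNA per cell cannot be told apart. Rht-D1 had a mean of 16.7 FPKM (12.3 to 21.8 FPKM) and Rht-B1 a mean of 15.4 FPKM (10.6 to 19.0 FPKM). Rht-D1 stood above Rht-B1 in 18 libraries and below it in 6. These levels exceeded those of 89.2%, 83.6% and 82.1% of the genes tested, in the order A, D, B, whose median was 4.60 FPKM. No source used here says how fragments were divided among near-identical copies, so the level of a single copy is uncertain.

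**Figure D1:**
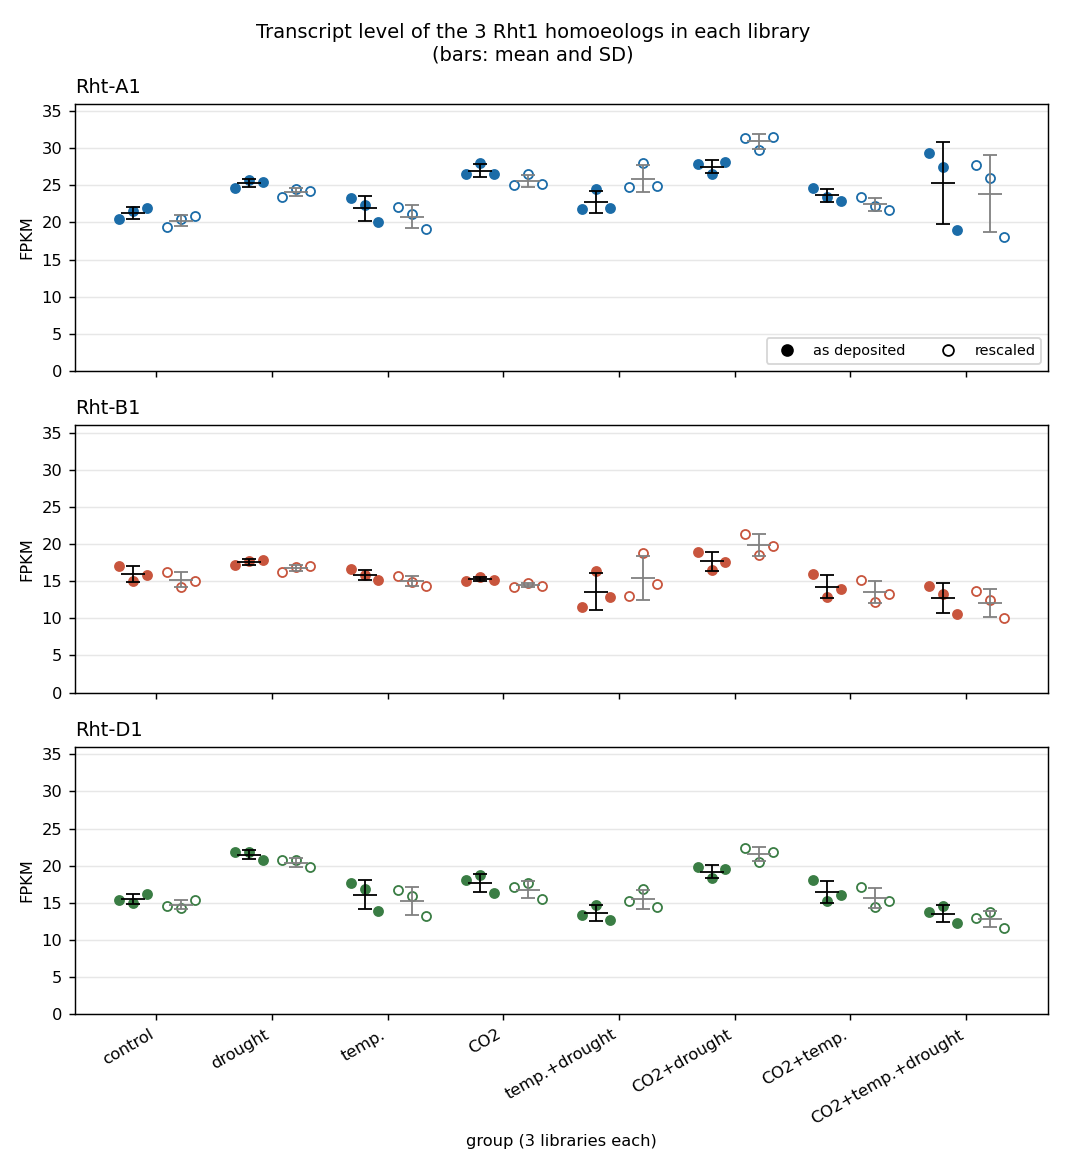
Level in FPKM of Rht-A1, Rht-B1 and Rht-D1 in each of the 24 libraries, by group, as deposited (filled) and rescaled (open), with bars for the mean and SD of 3 libraries. Rht-A1 lay above the other copies in every group, and Rht-D1 reached 21.8 FPKM under drought alone against at most 16.2 FPKM in the controls.

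Between groups, the copies differed about as much as a typical gene tested. As deposited, the group means of Rht-A1 ran from control (21.3 FPKM) through temperature, temperature+drought, CO2+temperature, CO2+temperature+drought, drought and CO2 to CO2+drought (27.5 FPKM). Only drought and CO2, among neighbours in this order, had libraries that did not overlap. Rht-B1 ran from CO2+temperature+drought (12.7 FPKM) through temperature+drought, CO2+temperature, CO2, temperature and control to drought and CO2+drought (17.7 FPKM). The libraries of control and drought were the only neighbours without overlap. Rht-D1 ran from CO2+temperature+drought (13.5 FPKM) through temperature+drought, control, temperature, CO2+temperature, CO2 and CO2+drought to drought (21.5 FPKM). Here, as deposited, temperature+drought and control did not overlap, and neither did CO2+drought and drought. Rescaled, both of these pairs overlapped, and the order within each turned round. Temperature+drought stood at 15.5 against 14.7 FPKM in control, and CO2+drought at 21.6 against 20.4 FPKM under drought. Counted from the lowest group, rescaling moved temperature+drought from rank 3 to 7 for A, 2 to 6 for B and 2 to 4 for D. Rescaled, CO2+drought was highest for all 3 copies, at 30.9, 19.9 and 21.6 FPKM for A, B and D. The span between the lowest and highest rescaled group means was 0.59, 0.68 and 0.71 on the log2 scale for A, B and D, against a median span of 0.66 over the genes tested.

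Drought on its own went with a higher level of Rht-D1. The 3 controls stood at 15.3, 15.0 and 16.2 FPKM and the 3 drought libraries at 21.8, 21.8 and 20.8 FPKM, so that every drought library lay above every control. The means were 15.5 ± 0.624 and 21.5 ± 0.609 FPKM (SD, n = 3 each), a fold of 1.38. On the log2 scale it rose by 0.45 (SE 0.09; limma, Benjamini-Hochberg adjusted p = 0.010), where 1.91% of genes were called, and by 0.45 rescaled (adjusted p = 0.011, 1.78% called). The call was narrow. Without control replicate 1 or 2 the Rht-D1 change was 0.44 or 0.42 (limma, Benjamini-Hochberg adjusted p = 0.0502 for each), and without drought replicate 1 or 2 it was 0.43 (0.0548 and 0.0529).

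The other copies did not pass the test under drought alone. Their libraries also lay above all controls, but such a separation was not a test. Rht-A1 stood at 20.4, 21.5 and 21.9 FPKM in control and 24.7, 25.7 and 25.5 FPKM under drought (change 0.24, SE 0.11; limma, Benjamini-Hochberg adjusted p = 0.31). For Rht-B1 the controls were 17.1, 15.0 and 15.8 FPKM and the drought libraries 17.1, 17.7 and 17.9 FPKM, separated only by the second decimal of the closest pair (change 0.13, SE 0.11; adjusted p = 0.66). Summed over the 3 copies, the level was 52.8 ± 1.26 FPKM in control and 64.3 ± 0.822 FPKM under drought (SD, n = 3 each). The share of Rht-D1 in that sum was 29.4 ± 0.534% in control and 33.4 ± 0.964% under drought, the highest of the 8 groups.

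Elevated CO2 went with a higher level of Rht-A1. Under CO2 alone its libraries stood at 26.5, 28.0 and 26.5 FPKM, all above the highest control of 21.9 FPKM. The mean of 27.0 ± 0.874 FPKM against 21.3 ± 0.792 FPKM in control (SD, n = 3 each) was a fold of 1.27. Rht-A1 rose by 0.33 (SE 0.11; limma, Benjamini-Hochberg adjusted p = 0.022, 35.3% of genes called), and by 0.32 rescaled (adjusted p = 0.025, 34.5% called). Without control replicate 1 or CO2 replicate 2 the Rht-A1 change was 0.30 in both cases (limma, Benjamini-Hochberg adjusted p = 0.0726 and 0.0730). Rescaled, it was also not called without control replicate 2 or CO2 replicate 3 (0.33 and 0.34).

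Averaged over the 4 backgrounds, CO2 raised Rht-A1 by 0.17 (SE 0.05; limma, Benjamini-Hochberg adjusted p = 0.017, 39.4% of genes called), and by 0.16 rescaled (adjusted p = 0.021, 39.3% called). This call held with each of the 24 libraries left out in turn. Rht-B1 stood at 15.1, 15.6 and 15.2 FPKM under CO2, inside the range of the controls. Its change under CO2 alone was -0.06 (adjusted p = 0.71) and its averaged change was -0.07 (SE 0.06; adjusted p = 0.34). Rht-D1 stood at 18.1, 18.7 and 16.3 FPKM, all above the highest control of 16.2 FPKM. Its change under CO2 alone was 0.18 (SE 0.09; adjusted p = 0.13) and its averaged change was 0.01 (SE 0.05; adjusted p = 0.86).

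Whether CO2 went with another balance between the copies was tested on their ratio within each library, which depends little on the scaling of the library. The ratio of Rht-A1 to Rht-B1 was 1.34 ± 0.126 in control and 1.77 ± 0.0282 under CO2 (SD, n = 3 each), with ranges of 1.19 to 1.43 and 1.75 to 1.80 that did not overlap. Across all libraries its log2 value averaged 0.79 with CO2 and 0.54 without, a difference of 0.25 that was positive in 4 of 4 backgrounds. In an exact permutation test, with labels exchanged within backgrounds, the two-sided p was 6.25e-05 (0.000563 adjusted over the 9 ratio tests made). The ratio of Rht-A1 to Rht-D1 likewise averaged 0.63 with CO2 and 0.47 without, higher in 4 of 4 backgrounds (difference 0.16; exact permutation p = 0.00138, adjusted 0.00619). For Rht-B1 to Rht-D1 the log2 ratio averaged -0.16 with CO2 and -0.07 without (exact permutation p = 0.127, adjusted 0.191). Both calls held with each library left out in turn. Drought gave no call on any of the 3 ratios, with differences of 0.11, 0.08 and -0.03 for A to B, A to D and B to D (adjusted exact permutation p of 0.107, 0.288 and 0.604). These averages joined shifts of opposite sign. For A to D, drought gave -0.22 alone and -0.09 with CO2, but 0.35 with CO2+temperature and 0.29 with temperature. In the same order, B to D had -0.33, 0.09, 0.12 and 0.00, and A to B had 0.11, -0.18, 0.24 and 0.29. The single backgrounds were not tested.

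**Figure D2:**
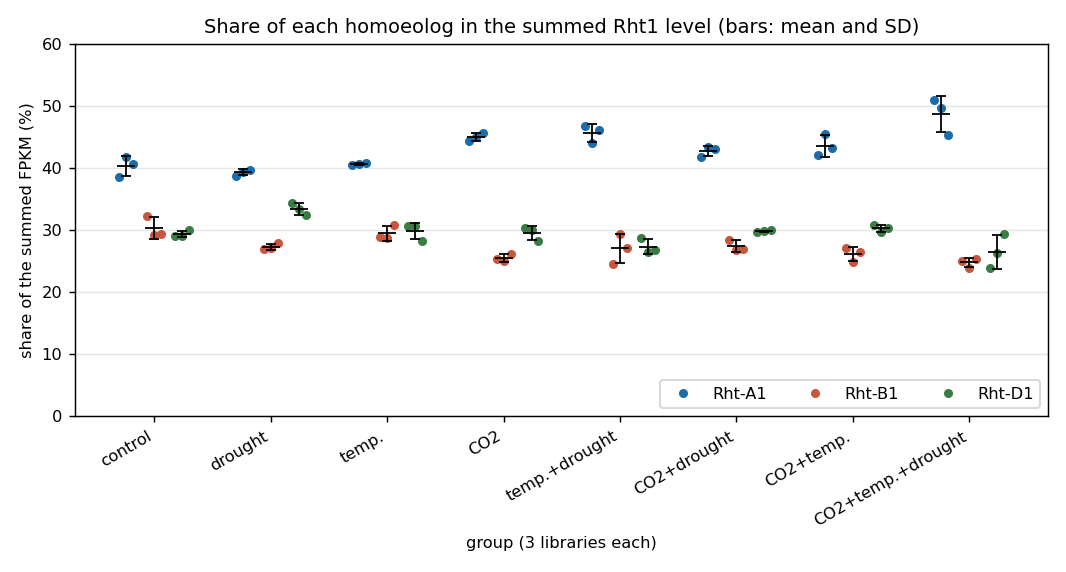
Share of each copy in the summed Rht1 level of a library, in percent, for 3 libraries per group, with bars for the mean and SD. The share of Rht-A1 was 40.3% in control, 45.0% under CO2 and 48.7% under all 3 treatments, and that of Rht-D1 was highest under drought alone, at 33.4%.

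Elevated temperature alone gave no call for any of the 3 copies. Rht-A1 stood at 23.3, 22.3 and 20.1 FPKM, Rht-B1 at 16.6, 15.8 and 15.1 FPKM and Rht-D1 at 17.6, 16.8 and 13.9 FPKM, and the libraries of each copy overlapped with its controls. The changes were 0.04, -0.01 and 0.05 for A, B and D (limma, Benjamini-Hochberg adjusted p of 0.86, 0.97 and 0.79), in a comparison that called 16.6% of genes.

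Averaged over the 4 backgrounds, however, temperature lowered Rht-B1 and Rht-D1. Rht-B1 fell by 0.23 (SE 0.06; limma, Benjamini-Hochberg adjusted p = 0.0026) and Rht-D1 by 0.29 (SE 0.05; limma, Benjamini-Hochberg adjusted p = 4.0e-05), where 40.5% of genes were called and 21.6% were called lower. Both calls held rescaled (40.5% of genes called) and, as deposited, with each of the 24 libraries left out in turn. The averaged change of Rht-A1 was -0.11 (SE 0.05; adjusted p = 0.11), and it was called without CO2+temperature+drought replicate 1 (-0.14; adjusted p = 0.034). Among the within-library ratios, the log2 ratio of Rht-A1 to Rht-D1 averaged 0.64 with temperature and 0.45 without (exact permutation p = 0.0136, adjusted 0.0408), but was higher in only 2 of 4 backgrounds. It was called in 12 of the 24 repeats that each left out 1 library. The log2 ratio of Rht-A1 to Rht-B1 averaged 0.73 with temperature and 0.60 without (exact permutation p = 0.0238, adjusted 0.0536). For Rht-B1 to Rht-D1 the log2 averages were -0.08 with temperature and -0.14 without (exact permutation p = 0.256, adjusted 0.288).

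In droughted plants, added heat went with lower Rht-D1. Added to drought, temperature took Rht-D1 from 21.8, 21.8 and 20.8 FPKM to 13.4, 14.7 and 12.7 FPKM, with no overlap. This change was -0.62 as deposited (SE 0.09; limma, Benjamini-Hochberg adjusted p = 1.4e-05, 50.1% of genes called) and -0.38 rescaled (adjusted p = 0.0021, 43.6% called). Added to CO2+drought, it took Rht-D1 from 19.8, 18.3 and 19.5 FPKM to 13.7, 14.5 and 12.3 FPKM. There the change was -0.48 (SE 0.09; limma, Benjamini-Hochberg adjusted p = 0.00023, 51% of genes called) and rescaled it was -0.71 (adjusted p = 3.7e-06, 42.4% called).

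Rht-B1 also stood lower where temperature was added to drought. It went from 17.1, 17.7 and 17.9 FPKM under drought to 11.5, 16.3 and 12.9 FPKM under temperature+drought, where replicate 2 lay near the drought libraries. That difference of -0.36 (SE 0.11; limma, Benjamini-Hochberg adjusted p = 0.011) was called as deposited. It was not called rescaled (-0.12; adjusted p = 0.41) or without temperature+drought replicate 1 (-0.26; adjusted p = 0.063). From 19.0, 16.5 and 17.6 FPKM under CO2+drought, Rht-B1 fell to 14.4, 13.3 and 10.6 FPKM with temperature added (change -0.45, SE 0.11; adjusted p = 0.0025), and by 0.68 rescaled (adjusted p = 7.5e-05). Rht-A1 changed by -0.15 and -0.14 in these comparisons as deposited, neither called, and rescaled only the second was called (0.10 and -0.38; adjusted p of 0.48 and 0.0075). Without drought, temperature added to CO2 called none of the 3 copies (changes of -0.18, -0.10 and -0.10 for A, B and D, 23.4% of genes called).

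The interaction of drought and temperature, averaged over CO2, tests whether the effect of one depends on the other, and the factors of the library sets cancel in it. It was negative and called for Rht-D1 (-0.52, SE 0.09; limma, Benjamini-Hochberg adjusted p = 0.00038) and Rht-B1 (-0.35, SE 0.11; limma, Benjamini-Hochberg adjusted p = 0.031), where 20.2% of genes were called and 9.95% were called with a negative value. Rht-A1 had an interaction of -0.07 (SE 0.11; adjusted p = 0.69). Rescaled values were -0.52, -0.35 and -0.07 for D, B and A, with the same calls (20.4% of genes called). The call of Rht-D1 held with each library left out in turn. The call of Rht-B1 was lost without control replicate 2 (-0.33; adjusted p = 0.0551), CO2+temperature replicate 1 (-0.31; adjusted p = 0.0606) or temperature+drought replicate 3 (-0.34; adjusted p = 0.0535), and rescaled in 14 of 24 such repeats.

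Split by CO2, in comparisons added after the data were seen, the interaction of Rht-D1 was -0.67 without CO2 (limma, Benjamini-Hochberg adjusted p = 0.00072, 29.3% of genes called) and -0.38 under CO2 (adjusted p = 0.031, 28.6% called). Rescaled it was -0.42 (adjusted p = 0.024, 20.9% called) and -0.62 (adjusted p = 0.0018, 20.5% called), so it stayed negative and called on both scales. The rescaled call without CO2 was lost without control replicate 2 (-0.40), temperature replicate 1 or 2 (-0.36 and -0.39), drought replicate 1 (-0.41) or temperature+drought replicate 3 (-0.37). The call under CO2 was lost as deposited without CO2 replicate 3 (-0.33), CO2+temperature replicate 1 (-0.32), CO2+drought replicate 1 or 3 (-0.36 and -0.37) or CO2+temperature+drought replicate 3 (-0.32). For Rht-B1 the values were -0.35 and -0.35 without and under CO2, called in neither. Rescaled they were -0.11 and -0.59, called under CO2 only (adjusted p = 0.68 and 0.013).

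**Figure D3:**
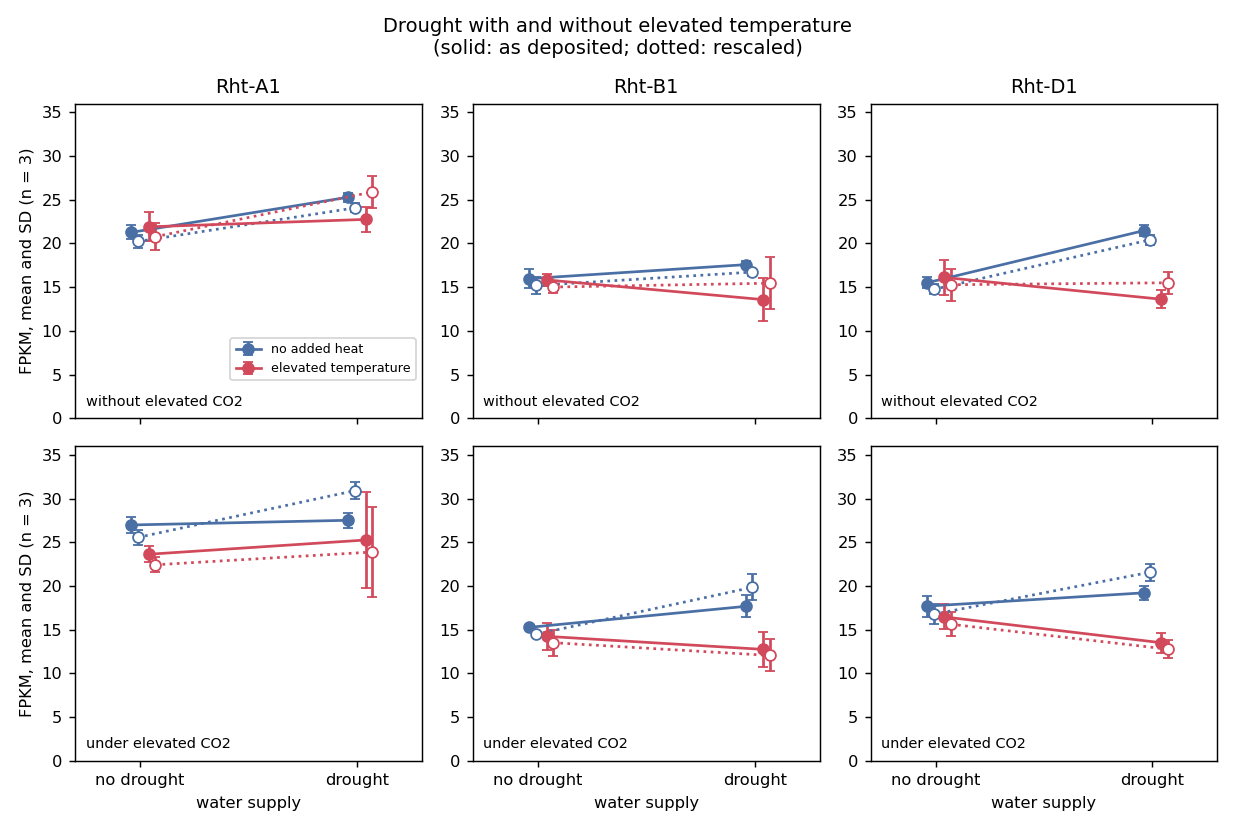
Mean level in FPKM with SD (n = 3) of each copy without and with drought, for plants without added heat (blue) and at elevated temperature (red), without CO2 (top) and under CO2 (bottom), as deposited (solid) and rescaled (dotted). For Rht-D1 without CO2, the deposited means without heat were 15.5 and 21.5 FPKM without and with drought. At elevated temperature they were 16.1 and 13.6 FPKM. Rescaled, the means were 14.7 and 20.4 FPKM without heat, and 15.3 and 15.5 FPKM at elevated temperature.

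Drought added to heated plants gave Rht-D1 negative changes as deposited. With temperature and CO2 present, Rht-D1 stood at 18.1, 15.3 and 16.0 FPKM before drought was added and at 13.7, 14.5 and 12.3 FPKM after, a difference of -0.27 (SE 0.09; limma, Benjamini-Hochberg adjusted p = 0.038, 23% of genes called). All 6 libraries belong to the larger set. The Rht-D1 call was lost without CO2+temperature replicate 1 or 3 (-0.20 and -0.28; adjusted p = 0.171 and 0.0678) and without CO2+temperature+drought replicate 1 or 3 (-0.28 and -0.20; adjusted p = 0.0618 and 0.145). Rht-A1 and Rht-B1 changed there by 0.07 and -0.15, not called, though without CO2+temperature+drought replicate 3 Rht-A1 had 0.26 (adjusted p = 0.0184). With temperature alone present, drought gave Rht-D1 a change of -0.22 (adjusted p = 0.048, 48.3% of genes called), which was 0.02 rescaled (adjusted p = 0.87, 36.8% called). As deposited, the Rht-D1 call was lost without temperature replicate 1 or 2 (-0.16 and -0.19) or temperature+drought replicate 1 or 3 (-0.21 and -0.18). Rescaled, Rht-A1 was called there instead (0.30; adjusted p = 0.031), while as deposited it had 0.05. The rescaled call of Rht-A1 was lost without temperature replicate 2 or 3 (0.32 and 0.25) or temperature+drought replicate 2 (0.25). Drought added to CO2 gave 0.03, 0.20 and 0.11 for A, B and D, none called (38.1% of genes called). Rescaled these were 0.26, 0.43 and 0.35, and B and D were called (adjusted p = 0.011 and 0.0098, 21.3% called). Without CO2 replicate 3 the rescaled value of Rht-D1 was 0.30 and not called.

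Averaged over all 4 backgrounds, drought changed none of the copies as deposited (0.10, -0.01 and 0.02 for A, B and D; limma, Benjamini-Hochberg adjusted p of 0.14, 0.88 and 0.77, 47.8% of genes called). The median gene stood at -0.10 in this comparison. Rescaled, the values were 0.22, 0.11 and 0.14, and Rht-A1 and Rht-D1 were called (adjusted p = 0.0035 and 0.025, 33.5% called). The rescaled call of Rht-D1 was lost without CO2 replicate 3 or CO2+temperature+drought replicate 2 (0.12 for each), and Rht-B1 was called without CO2+temperature+drought replicate 3 (0.14). As deposited, Rht-A1 was called when CO2+temperature+drought replicate 3 was left out (0.14; adjusted p = 0.0023).

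Of the combined treatments, CO2+drought had the highest levels. Rht-A1 stood at 27.8, 26.6 and 28.1 FPKM and Rht-D1 at 19.8, 18.3 and 19.5 FPKM, all above their controls. Rht-A1 rose by 0.36 (SE 0.11; limma, Benjamini-Hochberg adjusted p = 0.0094) and Rht-D1 by 0.29 (SE 0.09; limma, Benjamini-Hochberg adjusted p = 0.011), while 51.6% of genes were called and 14.8% were called higher. Rht-B1, at 19.0, 16.5 and 17.6 FPKM, changed by 0.14 (adjusted p = 0.31). Rescaled, all 3 copies were called, with changes of 0.59, 0.36 and 0.52 for A, B and D (adjusted p = 0.00019, 0.013 and 0.00012), where 43.3% of genes were called and 23.5% were called higher. The rescaled call of Rht-B1 was lost without control replicate 2 or CO2+drought replicate 1 (0.32 and 0.31).

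Temperature+drought gave no call as deposited. Rht-A1 stood at 21.8, 24.4 and 22.0 FPKM, and its change of 0.09 (limma, Benjamini-Hochberg adjusted p = 0.49, 53% of genes called) became 0.34 rescaled (adjusted p = 0.014, 45.5% called), which fell short without temperature+drought replicate 2 (0.28; adjusted p = 0.062). Rht-B1 and Rht-D1 had changes of -0.23 and -0.18 as deposited and 0.01 and 0.07 rescaled, none of them called. Without temperature+drought replicate 2, the change of Rht-B1 as deposited was -0.36 and was called (adjusted p = 0.0094).

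A comparison within the set of 6 libraries, added after the data were seen, set temperature+drought against CO2+drought. All 3 copies had lower means with temperature. The levels of Rht-D1 were 13.6 ± 1.02 and 19.2 ± 0.813 FPKM (SD, n = 3 each; change -0.47, SE 0.09; limma, Benjamini-Hochberg adjusted p = 0.00044), with no overlap between libraries, and 33.3% of genes were called (35.1% rescaled, with -0.45). Rht-B1 had 13.6 ± 2.49 against 17.7 ± 1.25 FPKM (-0.37; adjusted p = 0.015), and -0.35 rescaled (adjusted p = 0.019). As deposited the call was lost without CO2+drought replicate 1 (-0.32) or temperature+drought replicate 1 or 3 (-0.27 and -0.34), and rescaled without the same libraries (-0.30, -0.25 and -0.32). Rht-A1 had 22.8 ± 1.46 against 27.5 ± 0.833 FPKM, with no overlap but no call (-0.27; adjusted p = 0.064, and -0.25 rescaled; adjusted p = 0.079).

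CO2+temperature changed no copy against control (28.6% of genes called). Rht-A1 stood at 24.6, 23.4 and 22.9 FPKM, above all controls (change 0.15; limma, Benjamini-Hochberg adjusted p = 0.34). The libraries of Rht-B1 (15.9, 12.8 and 14.0 FPKM) and Rht-D1 overlapped with the controls, with changes of -0.16 and 0.08.

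Under all 3 treatments the mean of Rht-A1 stood above that of the controls, and the means of Rht-B1 and Rht-D1 below theirs. Whether Rht-A1 was called against control depended on replicate 3. Rht-A1 stood at 29.3, 27.5 and 19.0 FPKM, the widest spread of any group, Rht-B1 at 14.4, 13.3 and 10.6 FPKM, and Rht-D1 at 13.7, 14.5 and 12.3 FPKM. Replicate 3 was the lowest for all 3 copies. Rht-B1 and Rht-D1 lay below every control, a separation that was not a test. Rht-B1 fell by 0.31 (SE 0.11; limma, Benjamini-Hochberg adjusted p = 0.040, 30% of genes called; -0.32 and 29.4% called rescaled), a call lost without control replicate 1 or 3 (-0.27 and -0.32; adjusted p = 0.136 and 0.0788) or CO2+temperature+drought replicate 2 or 3 (-0.34 and -0.19; adjusted p = 0.0588 and 0.196). Rht-D1 had a change of -0.19 (adjusted p = 0.13). Rht-A1 had a change of 0.22 (adjusted p = 0.14), which was 0.40 and called without replicate 3 (adjusted p = 0.0004). The share of Rht-A1 in the summed level was 51.0%, 49.7% and 45.4% in the 3 libraries, all above the 38.6% to 41.8% of the controls. This difference in share was not tested.

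**Figure D4:**
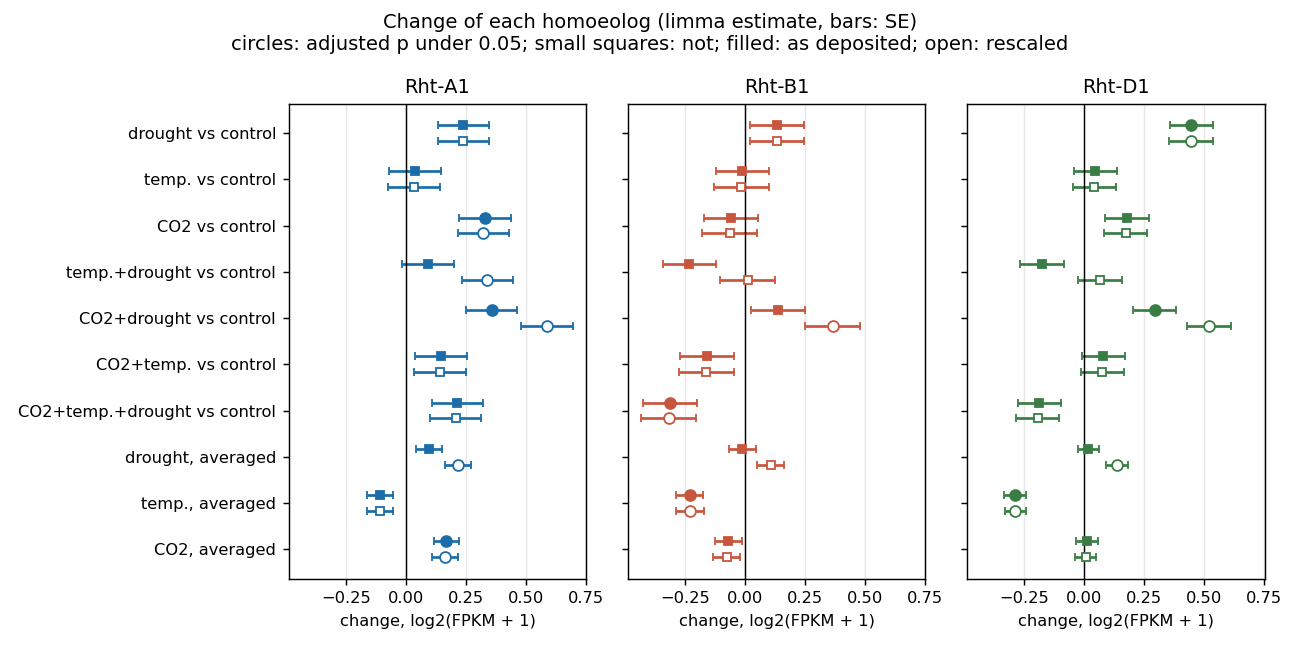
Change on the log2(FPKM + 1) scale of each copy in the 7 treated groups against control and for each treatment averaged over 4 backgrounds, with SE, as deposited (filled) and rescaled (open), circles marking an adjusted p under 0.05. On both scales Rht-D1 was called for drought alone (0.45), Rht-A1 for CO2 alone (0.33 as deposited), and Rht-B1 and Rht-D1 for temperature averaged over backgrounds (-0.23 and -0.29).

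Added to other treatments, CO2 gave no call for any copy as deposited. To temperature it added 0.11, -0.15 and 0.03 for A, B and D (13.7% of genes called), with similar rescaled values (0.11, -0.15 and 0.03). Added to drought, it gave Rht-A1 a change of 0.12 as deposited (49.1% of genes called) and 0.35 rescaled (limma, Benjamini-Hochberg adjusted p = 0.013, 40.8% called). Rht-B1 and Rht-D1 changed there by 0.01 and -0.15, or 0.23 and 0.08 rescaled, with no call. Added to temperature+drought, CO2 gave 0.12, -0.08 and -0.01 for A, B and D (46.2% of genes called). Rescaled these were -0.13, -0.33 and -0.26, with calls for Rht-B1 and Rht-D1 (adjusted p = 0.030 and 0.032, 34.1% called). These calls were lost without temperature+drought replicate 2 (-0.19 and -0.20) or CO2+temperature+drought replicate 3 (-0.21 and -0.20), and that of Rht-D1 also without CO2+temperature+drought replicate 1 (-0.27). Without the latter replicate 3, the deposited change of Rht-A1 was 0.31 and called (adjusted p = 0.0032).

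The interaction of temperature and CO2, averaged over drought, depended on the scale. As deposited it was -0.11, -0.09 and -0.00 for A, B and D, none called, where 53% of genes were called and the median gene stood at 0.20. Rescaled it was -0.35, -0.32 and -0.24, all called (limma, Benjamini-Hochberg adjusted p = 0.012, 0.026 and 0.039), with 44.4% of genes called, 24.1% with a negative value. The rescaled call of Rht-D1 was lost in 13 of 24 repeats with 1 library left out (values of -0.23 to -0.20 in those repeats), and that of Rht-B1 without CO2+temperature replicate 2 (-0.29). The rescaled call of Rht-A1 held in all 24 repeats (-0.40 to -0.26). Without the drought groups, where all 12 libraries come from the larger set, it was -0.22, -0.09 and -0.15, none called (adjusted p of 0.34, 0.76 and 0.48, 17.4% of genes called). Drought by CO2 called none of the copies (-0.10, 0.07 and -0.19; adjusted p of 0.60, 0.75 and 0.18, 13.9% of genes called). Rescaled it was -0.11, 0.06 and -0.20, again with no call (adjusted p of 0.56, 0.79 and 0.16, 14.3% called). The interaction of all 3 treatments also called none (0.23, 0.00 and 0.29 as deposited and -0.26, -0.48 and -0.20 rescaled; 38.1% and 21.5% of genes called), although without CO2+temperature+drought replicate 3 the deposited value of Rht-A1 was 0.41 (adjusted p = 0.024), and rescaled, without temperature+drought replicate 1, Rht-B1 had -0.59 (adjusted p = 0.047).

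The variance over the 24 libraries was divided by treatment as a description. For Rht-D1, temperature accounted for 42.9% and drought by temperature for 35.4% of the variance as deposited (37.0% and 30.3% rescaled), and differences between replicates for 14.3% (12.6% rescaled). For Rht-B1 the same terms accounted for 37.7% and 21.9% (27.4% and 15.7% rescaled), with 34.7% between replicates (26.4% rescaled). For Rht-A1, CO2 accounted for 27.4% (15.5% rescaled), drought for 9.10% (28.4% rescaled) and drought by temperature for 1.24% (0.671% rescaled), with 42.7% between replicates (26.3% rescaled). Its temperature by CO2 term accounted for 2.79% as deposited and 17.97% rescaled, above the CO2 term on the latter scale. Over all genes tested, the median shares were 6.37% for temperature, 3.03% for drought by temperature, 6.17% for CO2 and 24.5% between replicates, as deposited. They were 8.61% for drought and 10.6% for temperature by CO2. Rescaled, the medians were 7.19% for temperature, 3.46% for drought by temperature, 6.89% for CO2 and 28.0% between replicates. Those for drought and temperature by CO2 were 5.44% and 8.51%.

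**Figure D5:**
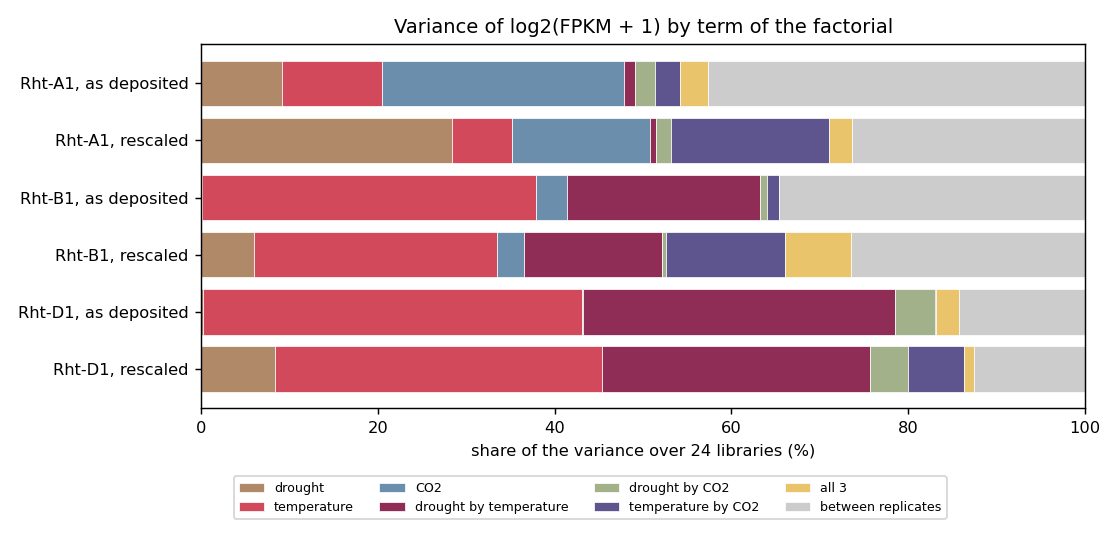
Share of the variance of log2(FPKM + 1) over the 24 libraries, in percent, for each term of the factorial and for differences between replicates, for each copy on both scales. Temperature and drought by temperature made up most of the bar of Rht-D1 (42.9% and 35.4% as deposited), and CO2 was larger for Rht-A1 (27.4%) than for Rht-B1 (3.51%) or Rht-D1 (0.0715%).

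The genes most alike to each copy were sought by the Pearson correlation of rescaled log2(FPKM + 1) over the 24 libraries, among 41127 other genes whose mean reached 1 FPKM. The libraries share their groups, so the correlation is a description of this design. It was taken on rescaled values only, while the levels of the nearest genes below are as deposited. Rht-B1 and Rht-D1 were among each other's nearest genes (r = 0.83): Rht-D1 ranked 2 for Rht-B1, and Rht-B1 ranked 5 for Rht-D1. Rht-A1 stood further away, with r = 0.61 to Rht-B1 and r = 0.63 to Rht-D1, ranks 2362 and 1990 in its own list. These still exceeded the values of 94.3% and 95.2% of the genes compared. In the lists of Rht-B1 and Rht-D1, Rht-A1 ranked 807 and 490, above 98.0% and 98.8% of genes. The genes nearest to Rht-A1 were TraesCS3A02G097400 (r = 0.91), at 15.8 FPKM in control, 38.4 under CO2 and 44.6 under CO2+drought, and TraesCS2D02G276900 (r = 0.89), at 12.4, 20.9 and 22.4 FPKM in the same groups. Nearest to Rht-B1 was TraesCS4A02G092500 (r = 0.87), at 4.04 FPKM in control and 3.24 under all 3 treatments. Nearest to Rht-D1 were TraesCS7B02G360800 (r = 0.85), at 22.9 FPKM in control, 34.0 under drought and 11.9 under all 3 treatments, and TraesCS2B02G190700 (r = 0.85), at 3.66, 6.25 and 4.45 FPKM. The files give none of these 5 identifiers a name.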

How the data were processed

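Poly-A RNA of leaves was sequenced as paired ends, and the authors deposited FPKM values for 24 libraries. The tools listed, per the submitters' processing notes, were DESeq2, Cuffdiff, HISAT2 and Trim Galore 0.4.1, without roles. Build, annotation and scaling of the libraries: not given in the sources used here. Absolute depth was unknown. From the most common ratio of low values (under 0.3 FPKM), the value of 1 fragment relative to control replicate 1 was 0.884 to 1.15 over the libraries. This number combines depth with column scaling.

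The 45359 genes that reached 1 FPKM in 3 or more libraries entered the test, on log2(FPKM + 1), which understates changes of low genes, by limma 3.58.1 in R 4.3.3 (1 coefficient per group, mean-variance trend). P-values were two-sided and adjusted by Benjamini and Hochberg within each of 23 contrasts, plus 4 added after the data were seen. For rescaling, the median ratio over 52828 genes above 0 in every library was used, and 45263 genes were tested. Ratios between copies, with a pseudocount of 0.1, were tested by exact permutation within backgrounds (160000 arrangements). Fits were tested on simulated data. The members, lists and tests were chosen with earlier results of these data known. The most alike genes were the 2 with the highest correlation per copy. No gibberellin gene list could be formed, because 0 identifiers matched the reference (IWGSC CS RefSeq v2.1). Replicate numbers were not treated as pairs.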

Additional observations from a re-analysis of the deposited data

Results flagged for a closer look

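The effect of drought differed between heated and unheated plants by a test of the difference itself in 4 results. They overlap, since the averaged Rht-D1 value is the mean of its values without and under CO2. That split was added after the data were seen. The drought by temperature interaction averaged over CO2 was -0.52 for Rht-D1 and -0.35 for Rht-B1, as deposited and rescaled. For Rht-D1 it was -0.67 without CO2 and -0.38 under CO2 as deposited, and -0.42 and -0.62 rescaled, so which of the pair was larger in size depended on the scale. The call under CO2 as deposited, and the call without CO2 rescaled, were each lost in 5 of the repeats that left out 1 library. The averaged call of Rht-B1 was lost in 3 of 24 such repeats as deposited and in 14 rescaled. Split by CO2, Rht-B1 was called in neither part as deposited. In each case the value is on the log2(FPKM + 1) scale, from limma over all 24 libraries.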

How the results depend on the processing

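Of 1554 values under other settings, 1455 kept their side of the threshold and direction, which counts 50 sign changes of at most 1 SE between values called under neither setting. A pseudocount of 0.1 in the fits, or of 1 in the ratios, changed no call, and neither did a fit of the larger set of 18 alone, chosen after seeing the data. Without the filter on low values, Rht-D1 for drought added to temperature (-0.22) was no longer called. With 6 libraries fitted per comparison, calls were lost for Rht-B1 under all 3 treatments (-0.31) and for temperature added to drought (-0.36), and for Rht-D1 with drought added to temperature (-0.22) or CO2+temperature (-0.27), while Rht-A1 with temperature added to CO2 was called (-0.18). The call of Rht-B1 for temperature+drought against CO2+drought (-0.37) was also lost.

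Rescaling moved the most. For A, B and D in that order, where 3 values are given, it gave 0.34, 0.010 and 0.066 for temperature+drought, 0.22, 0.11 and 0.14 for drought averaged, -0.35, -0.32 and -0.24 for temperature by CO2, -0.26, -0.48 and -0.20 for all 3 treatments, 0.30, 0.025 and 0.023 for drought added to temperature, and -0.13, -0.33 and -0.26 for CO2 added to temperature+drought. It gave Rht-B1 0.36 under CO2+drought, 0.43 for drought added to CO2 and -0.12 for temperature added to drought. It gave Rht-D1 0.35 for drought added to CO2 and 0.075 for CO2 added to drought. Rht-A1 had 0.10 for temperature added to drought, -0.38 for temperature added to CO2+drought, 0.35 for CO2 added to drought, and 0.065 and -0.20 for drought by temperature without and under CO2.

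Leaving out 1 library at a time gave these ranges, on values as deposited. Against control they were 0.42 to 0.48 for Rht-D1 under drought, 0.30 to 0.35 for Rht-A1 under CO2, -0.36 to -0.13 for Rht-B1 under temperature+drought, and 0.10 to 0.40 for Rht-A1 and -0.40 to -0.19 for Rht-B1 under all 3 treatments. Averaged, Rht-A1 had 0.069 to 0.14 for drought and -0.14 to -0.063 for temperature. The interactions were -0.42 to -0.29 for Rht-B1 (drought by temperature) and 0.11 to 0.41 for Rht-A1 (all 3). For drought added to temperature, the ranges were -0.35 to -0.12 (Rht-B1) and -0.32 to -0.16 (Rht-D1), and added to CO2+temperature, -0.045 to 0.26 (Rht-A1) and -0.32 to -0.20 (Rht-D1). Temperature added to drought gave -0.50 to -0.26 (Rht-B1) and added to CO2+drought -0.26 to 0.044 (Rht-A1). CO2 added to temperature+drought gave 0.0089 to 0.31 (Rht-A1) and -0.18 to 0.051 (Rht-B1), and added to temperature -0.064 to 0.10 (Rht-D1). The temperature ratios gave 0.11 to 0.15 (A to B) and 0.17 to 0.22 (A to D). Some rescaled ranges differed, such as -0.13 to 0.12 for Rht-B1 under temperature+drought against control. For temperature added to CO2+drought, the rescaled range of Rht-A1 was -0.49 to -0.20. Apart from library choice, the causes were not tested.

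With replicate number as a block, no limma call of the 3 genes changed. The A to D ratio for temperature (0.19) was no longer called when labels were swapped only between libraries of the same replicate number (replicate block; adjusted exact permutation p = 0.124). Of 84 same-number pairs of libraries, 12 had deviations correlated above 0.1 (range -0.285 to 0.438), so the numbers were not read as pairs. Absolute depth was unknown, which leaves counting error unmeasured.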
